A study of Mus musculus with 63 samples.

Results

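Transcripts of macrophages and neutrophils were followed through small intestinal tumours of *Apc*het mice. The 10 genes were chosen by name: *Csf1r*, *Adgre1*, *C1qa*, *C1qb* and *Cd68* as macrophage genes, *S100a8*, *S100a9* and *Cxcr2* as neutrophil genes, and *Itgam* and *Lyz2* as genes that several myeloid cells share. All 10 were found among the 24766 genes of the table. The mice carried *Villin-cre*ER, 1 floxed *Apc* allele (*Apc* fl/+) and the Confetti reporter, so that tamoxifen (4 mg, at 8 weeks of age or more) removed 1 copy of *Apc* in intestinal epithelium, where the *Villin* promoter drives Cre. All tumours also arose after the mutagen ENU (200 mg per kg, 10 days after tamoxifen), and no library comes from untreated tissue. In 20 tumours that held more than 1 clone by their Confetti colours (glands of different colours, or of 1 colour beside unlabelled glands), 10 of a female and 10 of a male mouse, the clones were cut apart and sequenced separately as a major clone (the larger) and a minor clone. A further 23 tumours were sequenced whole, of which 10 grew in the female and 13 in the male animal; they are called undivided. With 1 mouse of each sex, mouse and sex cannot be told apart, and tumours are replicates within a mouse.

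Macrophages are resident phagocytes of the intestinal wall that depend on signals through the CSF1 receptor and clear dying cells and bacteria. Neutrophils are short-lived granulocytes that enter tissue from the blood along gradients of chemokines recognised by CXCR2, and their cytoplasm is rich in the calcium-binding proteins S100A8 and S100A9. Both are common in the stroma of intestinal tumours. The tumours were dissected with scissors and forceps and not sorted, so their RNA is a mixture of epithelium, stroma and infiltrating cells. In such bulk RNA, fewer cells of a type and less RNA per cell cannot be told apart.

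Values are normalised counts, that is, the reads of each gene as estimated and scaled between libraries by the authors. They summed to between 26140200 and 45909900 per library. The 7 epithelial markers (*Epcam*, keratins and others) had summed levels of 155536 to 613768 in the undivided tumours, as the label of intestinal tumour requires. The macrophage list of 40 further genes was detected in full, while 2 of 37 genes of the neutrophil list (*Elane* and *Camp*, products of immature neutrophils) were no rows of the table, and *Cxcr1* was at 0 in over 50% of libraries. *Rn18s*, the 18S ribosomal RNA that selection of polyadenylated RNA should remove, took a median of 1.24% of the counts of major clones, 6.19% of those of minor clones and 3.11% of those of undivided tumours. Of the 20 divided tumours, 15 had less of it in the major clone. Its part in the differences below was not tested beyond the correlations given.

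*Csf1r* (chromosome 18, 61229714 to 61266535, plus strand of GRCm39), the receptor for the growth factors CSF1 and IL-34, was found in every library. Major clones held 150 to 1039 normalised counts of it (median 586), minor clones 111 to 1506 (median 460) and undivided tumours 64.1 to 1492 (median 597). The 3 groups overlapped over nearly their whole ranges. *Adgre1* (chromosome 17, 57665573 to 57790527, plus strand), which encodes the macrophage surface protein F4/80, had medians of 82.3, 73.9 and 96.6 normalised counts (major, minor, undivided). *Cd68* (chromosome 11, 69555037 to 69557067, minus strand), a glycoprotein of lysosomes, varied least. Over all 63 libraries it lay between 88.0 and 367 normalised counts, with group medians of 188, 191 and 191.

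*C1qa* and *C1qb* encode chains of C1q, the first component of the classical complement pathway, which tissue macrophages secrete. Both lie on the minus strand of chromosome 4 (*C1qa* at 136623223 to 136626161 and *C1qb* at 136606009 to 136613511), with *C1qc* between them. The median of *C1qa* was 719.7 normalised counts among major clones (329 to 1155), 585 among minor clones (209 to 1584) and 648 among undivided tumours (201 to 1480). *C1qb* had medians of 570.2, 477 and 572 in the same order. Again the 3 kinds of sample overlapped widely.

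*Itgam* (chromosome 7, 127661808 to 127717753, plus strand) encodes CD11b, the integrin subunit of neutrophils, monocytes and many macrophages. Its median was 353 normalised counts for major clones (106 to 555), 264 for minor clones (43.1 to 499.8) and 315 for undivided tumours (63.7 to 650.4). A read-through gene on the same strand, *Gm49368*, overlaps it over 55899 bases, and reads of both could be split between them. *Gm49368* itself had a median of 0.817 normalised counts over the 63 libraries and a maximum of 128. Genes on the opposite strand overlap *Csf1r* (*Hmgxb3*), *C1qb*, *Cd68* and *Lyz2* (long non-coding RNAs), and the libraries were made with a stranded kit.

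*Lyz2* (chromosome 10, 117111557 to 117118346, minus strand) encodes the lysozyme of macrophages and neutrophils. Its neighbour *Lyz1*, 5351 bases away, encodes the lysozyme of Paneth cells, the secretory cells at the crypt base. The coding sequences, both 447 bases long in Gencode M39, were 95.1% identical, with 22 differing bases, and 38.9% of the 31-base words of the *Lyz2* coding sequence also occurred in that of *Lyz1*. Over whole transcripts the share was 14.4%. The first 240 coding bases are shown as an example of how alike the coding sequences are, with the 17 bases that differ in capitals (GRCm39, spliced, *Lyz2* from chr10:117116607-117118147 and *Lyz1* from chr10:117126995-117128743, minus strand).
Lyz2: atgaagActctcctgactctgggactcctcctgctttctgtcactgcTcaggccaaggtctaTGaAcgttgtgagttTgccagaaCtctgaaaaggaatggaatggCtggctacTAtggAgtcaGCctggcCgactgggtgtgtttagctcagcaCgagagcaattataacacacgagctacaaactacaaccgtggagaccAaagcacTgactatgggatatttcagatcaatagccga
Lyz1: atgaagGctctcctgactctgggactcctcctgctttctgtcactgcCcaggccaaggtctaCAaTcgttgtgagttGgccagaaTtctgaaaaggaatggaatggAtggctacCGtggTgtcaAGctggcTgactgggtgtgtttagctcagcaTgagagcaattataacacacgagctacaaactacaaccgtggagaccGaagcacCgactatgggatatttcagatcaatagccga
Long stretches without a capital, such as those near the 3′ end of the part shown, do not separate the genes. *Lyz2* had medians of 1018, 763 and 1281 normalised counts (major, minor, undivided). The mean over the 63 libraries was 1167 for *Lyz2* and 54933 for *Lyz1*, and the part of shared reads in the level of *Lyz2* was not tested. In each group the value of r was higher for *Lyz2* with *C1qa* than for *Lyz2* with *Lyz1*. With *C1qa*, Pearson's r was 0.80 in 23 undivided tumours (rho 0.77, adjusted permutation p = 0.00018 for rho), 0.64 in 20 major clones (rho 0.66, adjusted p = 0.00452) and 0.88 in 20 minor clones (rho 0.82, adjusted p = 0.00018). With *Lyz1* it was 0.42 (rho 0.43, adjusted p = 0.0623), 0.00 (rho -0.01, adjusted p = 0.972) and 0.07 (rho 0.19, adjusted p = 0.505). These 6 relations formed 1 family, and the difference between the correlations was not tested. Without the 2 tumours farthest from the median of *Lyz2*, r with *C1qa* was 0.68, 0.52 and 0.78 in the 3 groups, and r with *Lyz1* was 0.19, 0.10 and 0.36. Within the female and the male mouse, r with *Lyz1* was 0.33 and 0.56 among undivided tumours. It was 0.34 and -0.09 among major clones, and 0.49 and -0.23 among minor clones.

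*S100a8* (chromosome 3, 90567118 to 90578128, plus strand) and *S100a9* (chromosome 3, 90599931 to 90603071, minus strand) encode the 2 subunits of calprotectin, and their genes are 21802 bases apart and point towards each other. Major clones held 33.1 to 595 normalised counts of *S100a8* (median 126), minor clones 4.71 to 639 (median 103) and undivided tumours 0 to 789 (median 153). For *S100a9* the ranges were 34.4 to 755 (median 172), 4.55 to 898 (median 118) and 1.68 to 933 (median 207) in the same order. The 3 kinds of sample overlapped, and the lowest values lay among minor clones and undivided tumours. *Cxcr2* (chromosome 1, 74193150 to 74200405, plus strand), the receptor for neutrophil chemokines, was the lowest in mean normalised counts, which are not corrected for length. Its medians were 33.5 (major), 22.3 (minor) and 33.9 (undivided), and it was listed at 0 in the minor clone of male tumour 19 and in undivided male tumours 5 and 17.

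Because *S100a8*, *S100a9* and *Cxcr2* moved together over tumours (below), the 250 bases upstream of their RefSeq start sites are shown, in the direction of transcription (RefSeq on GRCm38.p6, another build than that of the gene positions above; *S100a8* chr3:90668821-90669070, plus strand; *S100a9* chr3:90695722-90695971, minus strand; *Cxcr2* chr1:74153744-74153993, plus strand).
S100a8: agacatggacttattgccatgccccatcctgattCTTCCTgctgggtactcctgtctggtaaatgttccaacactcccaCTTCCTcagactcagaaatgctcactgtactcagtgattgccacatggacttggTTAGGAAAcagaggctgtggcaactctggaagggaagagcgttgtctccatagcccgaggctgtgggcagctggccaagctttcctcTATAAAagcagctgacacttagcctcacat
S100a9: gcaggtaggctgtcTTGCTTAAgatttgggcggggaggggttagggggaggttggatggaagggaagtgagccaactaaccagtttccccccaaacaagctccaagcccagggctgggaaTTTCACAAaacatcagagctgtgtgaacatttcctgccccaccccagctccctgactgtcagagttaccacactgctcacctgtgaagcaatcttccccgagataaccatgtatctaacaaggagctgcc
Cxcr2: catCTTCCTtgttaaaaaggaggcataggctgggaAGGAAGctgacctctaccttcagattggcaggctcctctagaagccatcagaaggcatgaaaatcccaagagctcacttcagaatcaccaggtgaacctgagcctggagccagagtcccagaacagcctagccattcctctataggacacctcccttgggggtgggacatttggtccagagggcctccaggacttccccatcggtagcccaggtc
Capitals mark matches, on either strand, to 3 sets of letters that describe motifs known from myeloid or general promoters. The letters searched for the C/EBP-type motif were TTNNGNAA. Those of the PU.1-type motif were AGGAAG. Those of the TATA-type motif were TATAAA. *S100a8* held all 3 kinds, with a C/EBP-type match that began 117 bases before the start site and a TATA-type match that began 30 bases before it. *S100a9* held C/EBP-type matches only, of these letters, beginning 236 and 130 bases before its start. *Cxcr2* held PU.1-type matches only, beginning 247 and 215 bases before its start. Such matches are common: of 32851 windows of 250 bases in the table of promoters, 36.8% held the C/EBP-type, 29.5% the PU.1-type and 12.4% the TATA-type letters. Of the 10 genes, 7 had an entry, of which 5 held the C/EBP-type letters, 5 the PU.1-type letters and 1 the TATA-type letters. No kind of match was common to *S100a8*, *S100a9* and *Cxcr2*. Any part of these letters in how the genes varied over tumours was not tested.

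The design asks first whether the paired clones of a tumour differ. Each of the 10 genes was higher in the major clone on average, but none passed the test across all genes. The mean log2 differences, major minus minor, were 0.44 for *Csf1r*, 0.24 for *Adgre1*, 0.33 for *C1qa*, 0.21 for *C1qb*, 0.11 for *Cd68*, 0.41 for *Itgam*, 0.26 for *Lyz2*, 0.64 for *S100a8*, 0.64 for *S100a9* and 0.94 for *Cxcr2* (20 tumours). In limma with tumour as a block, 0 of the 10 had a Benjamini-Hochberg adjusted p under 0.05, where 1.14% of the 16428 genes tested did. Of those calls 110 of 188 were higher in the major clone, and after quantile normalization 141 of 366 were. Without adjustment, 7 of the 10 had a p under 0.05 in limma, against 22.4% of all genes. In a permutation test that swapped clone labels within tumours, 6 of the 10 did, and the share over all genes was not computed. The median difference was 0.37 for the 10 genes and 0.01 for all genes tested. Leaving out female tumour 19 gave 1 adjusted p under 0.05, that of *Itgam*.

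**Figure D1:**
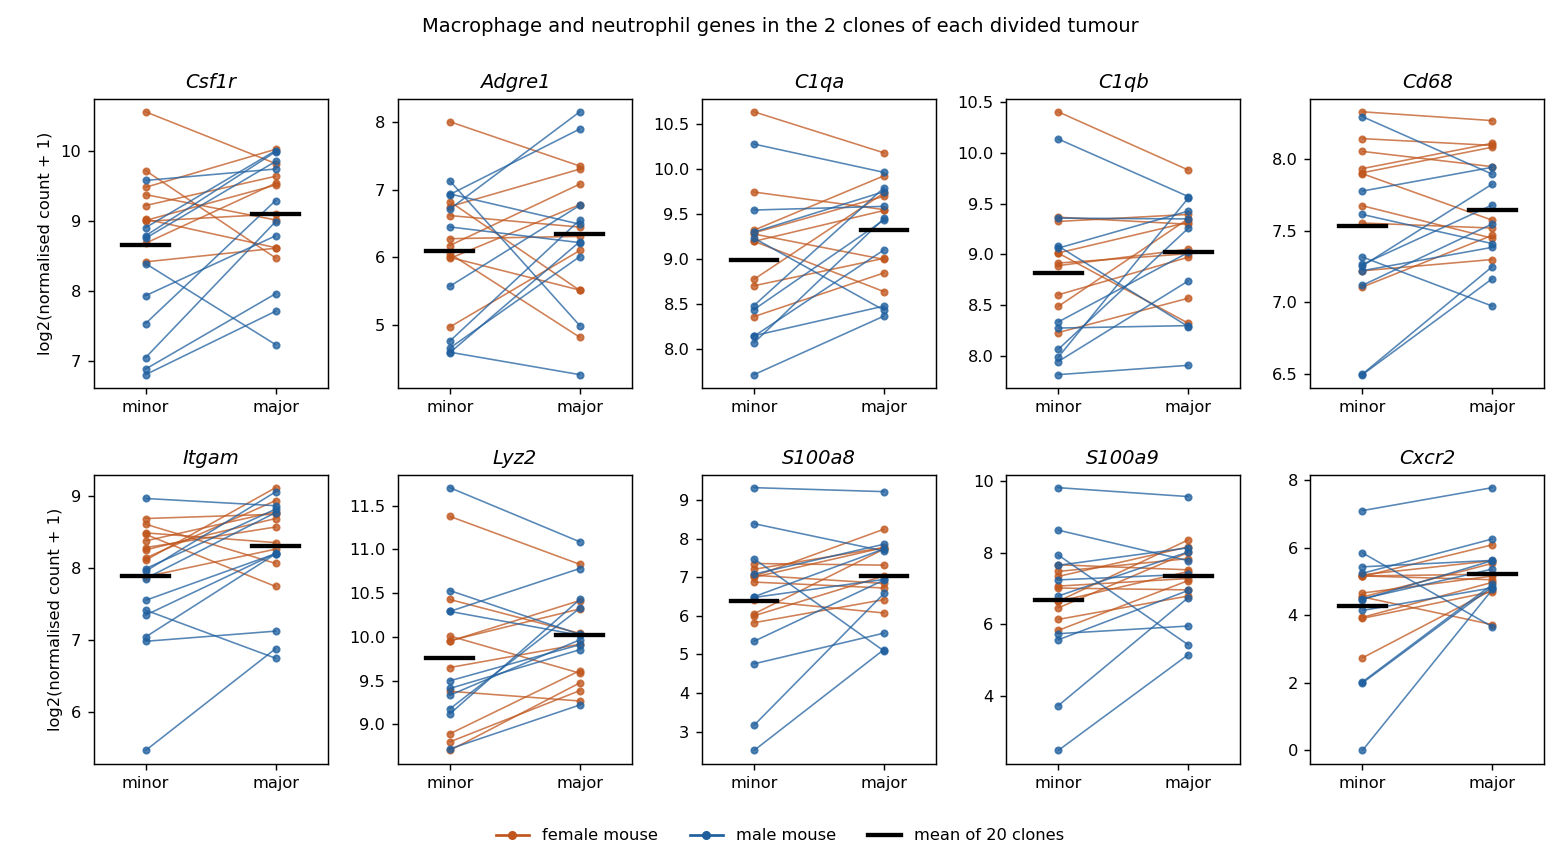
Normalised counts of the 10 genes in the minor and the major clone of each divided tumour, as log2(value + 1). Each line joins the clones of 1 tumour (10 of the female and 10 of the male mouse) and black bars are the means of 20 clones. Lines rise from minor to major in 17 of 20 tumours for *Cxcr2* and in 11 of 20 for *Cd68* and *Adgre1*.

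*Cxcr2* had the largest paired difference of the 10. It was higher in the major clone in 17 of 20 tumours, as were at least that many tumours for 1.03% of all genes tested, and the fitted log2 difference was 0.94 (SE 0.31, 95% confidence interval 0.30 to 1.57, limma adjusted p = 0.0860). Within tumours the difference ran from -2.19 in male tumour 23 to 4.77 in male tumour 19, where the minor clone was listed at 0. *Itgam* was higher in the major clone in 15 of 20 tumours, by 0.41 on the log2 scale (SE 0.13, interval 0.14 to 0.69, limma adjusted p = 0.0821). Neither reached the threshold after adjustment.

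*S100a8* was higher in the major clone in 13 and *S100a9* in 15 of 20 tumours. The widest gaps were those of male tumour 19, with 94.7 against 7.97 normalised counts of *S100a8* in the major and minor clone, and of male tumour 27, with 34.0 against 4.71. Male tumour 23 went the other way, with 33.1 against 177. The fitted log2 difference was 0.64 for *S100a8* (SE 0.26, interval 0.11 to 1.17, limma adjusted p = 0.144) and 0.64 for *S100a9* (SE 0.25, interval 0.12 to 1.17, limma adjusted p = 0.136).

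Among the macrophage genes, *Csf1r* was higher in the major clone in 15 of 20 tumours (log2 difference 0.44, SE 0.18, limma adjusted p = 0.158) and *C1qa* in 14 of 20 (0.33, SE 0.13, limma adjusted p = 0.139). *Cd68* was nearly even, with 11 of 20 tumours and an interval of -0.06 to 0.28. Over all genes tested, 7.55% were higher in the major clone in at least 15 tumours, and 4 of the 10 genes were. All 10 genes were higher in the major clone in 5 tumours (female 26 and 30, male 26, 29 and 31), and at most 2 were in 3 tumours (female 20 and 28, male 23).

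The clone difference was then compared between the mice. *Csf1r* averaged 599.8 ± 339 normalised counts (SD, n = 10) in major and 324 ± 209 in minor clones of the male mouse, against 641 ± 236 and 661 ± 331 in the female mouse. The log2 difference was 0.89 in the male mouse, with 9 of 10 tumours higher in the major clone, and -0.01 in the female mouse, with 6 of 10. The difference between these was 0.91 (interval 0.24 to 1.57), with an unadjusted p of 0.00991 and an adjusted p of 0.633 in limma across all genes, so that it was not called. The fit used all 20 tumours and no covariate for segment. The mean clone difference of *Csf1r* was 0.05 in SI10 and 0.69 in SI20 tumours. This comparison, chosen after the data were seen, called 0% of all genes and 0 of the 10, with an unadjusted p under 0.05 for 1 of the 10 and for 7.65% of all genes. On the lists below, *Siglec1* (1.24), *Cx3cr1* (0.80) and *Apoe* (0.57), and *Mmp9* (0.91), *Trem1* (-0.42) and *Cxcl5* (0.70), had the smallest p, with limma adjusted p from 0.633 to 0.776.

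Further genes of the same cells were read from lists. Of the macrophage list, 35 of 40 genes were tested, 0 had an adjusted p under 0.05 and 15 had an unadjusted p under 0.05, with a median log2 difference of 0.36. Among the smallest p values were those of *Mertk*, a receptor for dying cells (0.76, limma adjusted p = 0.0621), and *Siglec1*, a sialic acid receptor (0.83, adjusted p = 0.0761). Of the neutrophil list, 30 of 37 genes were tested, with a median of 0.34. Of these, 0 had an adjusted p under 0.05 and 7 an unadjusted p under 0.05. Over all genes tested, 22.4% had an unadjusted p under 0.05 in limma, near the share of the neutrophil list. Here *Mmp8*, a granule collagenase (0.57, adjusted p = 0.0821), *Retnlg*, a resistin-like protein (0.68, adjusted p = 0.0956), and *G0s2*, an inhibitor of fat breakdown (0.57, adjusted p = 0.103), had the smallest p.

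Marker genes of other cell types were counted in the same comparison, and none had an adjusted p under 0.05 in limma. The share of all genes with an unadjusted p under 0.05 was 22.4%. Unadjusted p values under 0.05 were found for 6 of 7 fibroblast genes (median log2 difference 0.66), 4 of 5 smooth muscle genes (0.58), 4 of 4 genes of B and plasma cells (0.57), 2 of 4 general leukocyte genes (0.25), 4 of 8 Paneth cell genes (0.45) and 1 each of 7 T cell genes, 5 endothelial genes and 7 epithelial genes (0.32, 0.34 and 0.13). None of 4 mast cell genes, 0 of 2 eosinophil genes and 1 of 2 dendritic cell genes did (medians 0.42, 0.16 and -0.19). The endothelial gene (*Cdh5*, -0.54) and the dendritic cell gene (*Zbtb46*, -0.42) were lower in the major clone. The endothelial genes summed were lower in the major clone, by -0.35 on the log2 scale, against a median of 0.34 over the genes. Summed fibroblast markers ran from 1547 to 20822 normalised counts in major and from 1261 to 18876 in minor clones. The part of these cells in the differences of the 10 genes was not tested.

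The share of *Rn18s* was set against the 10 clone differences (major minus minor, both on the log2 scale, 20 tumours), a comparison chosen after the data were seen. *Adgre1* had a Pearson's r of -0.57 (rho -0.63, permutation p adjusted over 10 genes 0.0863 for r and 0.0371 for rho), with -0.50 without the 2 tumours farthest from the median, -0.40 in the female and -0.73 in the male mouse. *Itgam* had -0.47 (rho -0.55, adjusted permutation p = 0.180 and 0.0692), and *Lyz2*, *Csf1r* and *C1qa* had r of -0.37, -0.36 and -0.34 (adjusted p = 0.284 each). For *S100a8*, *S100a9* and *Cxcr2*, r was 0.07, 0.07 and 0.11 (rho 0.02, 0.06 and 0.08, adjusted permutation p = 0.876 for each r and 0.943, 0.919 and 0.919 for rho).

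The second comparison sets undivided tumours against clones, with mouse as a covariate. Undivided tumours and minor clones differed for none of the 10 genes in limma, where 3.7% of 16491 genes were called, 2.27% higher and 1.43% lower. With every library scaled to the same sum, the median of all genes moved from -0.01 to -0.11, and 238 of 649 calls were higher in place of 375 of 610. The log2 differences, undivided minus minor, ran from -0.04 (*S100a8*) to 0.52 (*Csf1r*). The value of *S100a8* near 0 pooled opposite directions, 1.17 for the female mouse by itself (unadjusted p = 0.00217, adjusted p = 0.441), against -1.12 for the male mouse by itself (adjusted p = 0.524). Likewise *S100a9* was at 1.35 (adjusted p = 0.441) and -1.15 (0.502), and *Cxcr2* at 0.95 (0.475) and -0.31 (0.879), in the female and male mouse in limma. *C1qa* alone of the 10 had an unadjusted p under 0.05 (0.49, interval 0.08 to 0.90, limma adjusted p = 0.165), against 19.6% of all genes. Of the macrophage list, 3 of 35 genes were higher in undivided tumours, among them *Ctss*, the protease cathepsin S, by 0.71 (adjusted p = 0.0139), and *Mertk* by 0.97 (adjusted p = 0.0305). No gene of the neutrophil list was called, and the smallest p values were those of *Ltf*, the granule protein lactoferrin (-1.15, adjusted p = 0.0951), *Ltb4r1*, a leukotriene receptor (0.53, adjusted p = 0.244), and *Ly6g*, a surface protein of mature neutrophils (-0.94, adjusted p = 0.305). Of the other markers, 2 of 7 T cell genes were higher and 1 of 5 endothelial genes lower in undivided tumours, and 4 of 4 general leukocyte genes had an unadjusted p under 0.05 (median 0.50).

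Against major clones, 0 of the 10 genes were called, where 0.0121% of 16510 genes were, and 0 had an unadjusted p under 0.05, where 12% of all genes did. The macrophage genes lay close to 0, from -0.10 (*Cd68*) to 0.18 (*Adgre1*). The neutrophil genes were -0.69 for *S100a8*, -0.62 for *S100a9* and -0.67 for *Cxcr2*, with intervals that reach from -1.71 to 0.33, from -1.60 to 0.36 and from -1.56 to 0.21. These directions turned with the mouse. *S100a8*, *S100a9* and *Cxcr2* were at 0.66, 0.61 and 0.37 in the female mouse alone and at -1.89, -1.71 and -1.60 in the male mouse alone, none called. The same undivided tumours enter both comparisons. Of the lists, *Aif1* (0.46), *Ctss* (0.40) and *Clec7a* (0.58) among macrophage genes and *Ptgs2* (-1.44), *Ly6g* (-1.14) and *Il1a* (-0.95) among neutrophil genes had the smallest p, with limma adjusted p from 0.317 to 0.375 and none called.

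The third comparison is between segments of the small intestine, which the labels name SI10, SI20 and SI30. In divided tumours (7 of SI10 and 10 of SI20, the mean of both clones as 1 value per tumour), 0 of the 10 genes were called by limma, where 0.28% of 16436 genes were, 0.0973% lower and 0.183% higher. Those 46 calls became 13 without female tumour 19 and 215 without female tumour 23. An unadjusted p under 0.05 was found for 4 of the 10 and for 14.3% of all genes, and all 4 were lower in SI20. They were *Adgre1* by -1.07 (interval -1.74 to -0.39, limma adjusted p = 0.193), *Lyz2* by -0.78 (-1.29 to -0.28, adjusted p = 0.199), *C1qb* by -0.60 (-1.04 to -0.16, adjusted p = 0.246) and *C1qa* by -0.62 (-1.11 to -0.14, adjusted p = 0.274). The neutrophil genes were not different beyond their spread, with -0.56 for *S100a8*, -0.48 for *S100a9* and -0.33 for *Cxcr2*. Of the macrophage list, *Clec7a*, a receptor for fungal glucans, was called, at -0.98 (SE 0.18, adjusted p = 0.0286). *Trem2* (-0.91) and *Tyrobp* (-0.52), a lipid receptor and its signalling partner, followed with adjusted p of 0.239 and 0.260. In the neutrophil list, *Padi4* (0.73) and *Hdc* (-0.70) were among the genes with the smallest p, with adjusted p of 0.249 and 0.380. Unadjusted p values under 0.05 were also found for 5 of 8 Paneth cell genes (median 1.45) and 2 of 4 general leukocyte genes (median -0.58), none of them called.

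In undivided tumours (12 of SI10 and 11 of SI20), none of the 10 genes was called, where 0.17% of 16511 genes were (0.0182% higher, 0.151% lower), and none had an unadjusted p under 0.05, where 7.62% of genes did. *C1qa* had medians of 865 normalised counts in SI10 and 641 in SI20. The fitted log2 difference, SI20 minus SI10, was -0.31 for *C1qa* (interval -0.84 to 0.22) and 0.05 for *Adgre1* (-0.65 to 0.74). Of the lists, *Ctss* (-0.57), *Clec7a* (-0.74) and *Lyve1* (0.54), and *Fpr2* (1.37), *Lcn2* (2.05) and *G0s2* (0.53), had the smallest p, with limma adjusted p from 0.187 to 0.681. The mice did not share a direction. In the female mouse alone *Csf1r* was at -0.98, *Adgre1* at -1.04 and *C1qa* at -0.96 (unadjusted p = 0.00612, 0.0106 and 0.00234, adjusted p = 0.999 each in limma). In the male mouse alone *Adgre1* was at 0.89 and *C1qa* at 0.20, and none was called.

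Whether the clone difference itself changes with segment was tested in the 17 divided tumours. *S100a9* was higher in the major clone in 10 of 10 SI20 tumours and in 2 of 7 SI10 tumours, with mean log2 differences of 0.96 and -0.02. *S100a8* had 8 of 10 and 2 of 7, with 0.94 and 0.09. The test of this change gave 0.98 for *S100a9* (interval -0.21 to 2.16) and 0.84 for *S100a8* (-0.42 to 2.09), both with a limma adjusted p of 0.998. *Cxcr2* was higher in the major clone in 9 of 10 SI20 and 5 of 7 SI10 tumours, and its change was 0.06. Of all genes, 0% were called, and an unadjusted p under 0.05 was found for 0 of the 10 and 4.06% of genes. On the lists, *Ms4a7*, *C1qc* and *Cx3cr1*, and *Acod1* and *Mmp8*, were among those with the smallest p, at log2 values of 0.80, 0.65, 0.72, 1.46 and 0.58 and adjusted p of 0.998 each.

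The largest fitted log2 differences of the 10 genes were those of *S100a8* and *S100a9* between the mice in undivided tumours. In undivided tumours, *S100a8* ranged from 64.8 to 789 normalised counts in the female mouse (median 203, n = 10) and from 0 to 279 in the male mouse (median 22.3, n = 13). Of the 13 male tumours, 8 lay below every female tumour. The same count of male tumours lay below every female tumour for *S100a9*, which ranged from 73.9 to 933 (median 261) in the female and from 1.68 to 373 (median 53.0) in the male mouse. The male tumours spread widely: tumours 2, 8 and 10 had 201 to 279 normalised counts of *S100a8*, within the female range, and tumours 4, 9, 15, 17 and 18 had 8.41 or fewer.

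With segment as a covariate, *S100a8* was lower in the male mouse by -2.84 on the log2 scale (SE 0.76, interval -4.42 to -1.26, limma adjusted p = 0.0123) and *S100a9* by -2.75 (SE 0.75, interval -4.29 to -1.20, adjusted p = 0.0129). These were 2 of the 10 genes, both in a comparison where 19.1% of 16511 genes were called, 10.3% higher and 8.82% lower in the male mouse. Counted in either direction, the 10 genes were thus called about as often as all genes. When every library was scaled to the same sum, the median of all genes moved from -0.05 to -0.25, 961 of 4357 calls were higher in the male mouse in place of 1697 of 3154, and 5 of the 10 genes were called, all lower (*Itgam*, *Cd68* and *Cxcr2* beside these 2). An unadjusted p under 0.05 was found for 5 of the 10 genes on the values as deposited and for 33.3% of all genes. *Itgam* at -0.78 (adjusted p = 0.0564), *Cd68* at -0.54 (0.0786) and *Cxcr2* at -1.65 (0.0876) did not pass in limma on the values as deposited, and *Lyz2* was at 0.19 (interval -0.37 to 0.76). Male tumours 15, 17 and 18, which continue a numbering that otherwise stops at 10, held *S100a8* at 0, 8.41 and 8.17 normalised counts. Without them *S100a8* was at -2.02 (adjusted p = 0.0320) and *S100a9* at -1.89 (adjusted p = 0.0383), and the difference of *Cxcr2* went from -1.65 to -1.09.

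**Figure D2:**
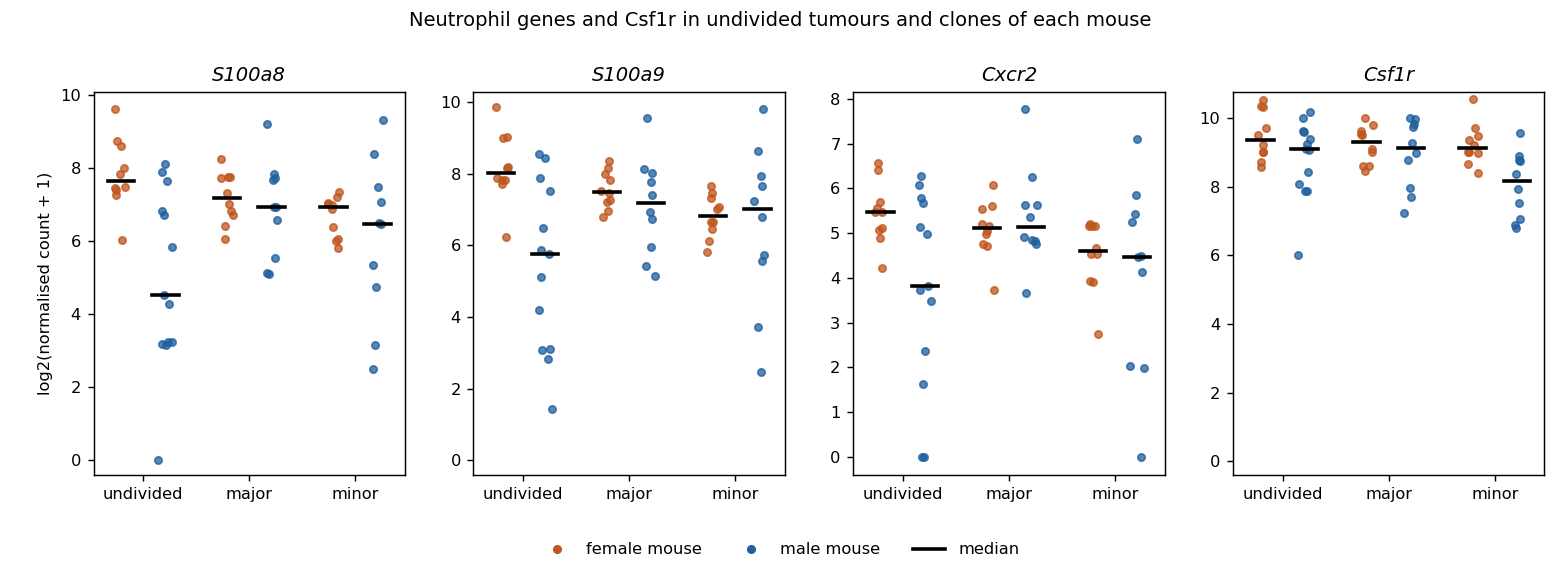
Values of *S100a8*, *S100a9*, *Cxcr2* and *Csf1r* in undivided tumours (10 female, 13 male), major clones and minor clones (10 of each mouse), as log2(normalised count + 1). Points are libraries and bars medians. For *S100a8*, male undivided tumours run from 0 to 279 normalised counts and female ones from 64.8 to 789, so that they overlap in part. The clones of the mice overlap as well, with male minor clones that reach down to 4.71 and female ones to 55.6.

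Many genes of the neutrophil list showed the same direction in undivided tumours. Of the 30 that were tested, 15 were called lower in the male mouse and 0 higher, where 8.82% of all genes were lower and 10.3% higher. The median log2 difference was -1.58, against -0.05 over all genes. The smallest p values were those of *Il1r2*, a decoy receptor for interleukin 1 (-1.57, limma adjusted p = 0.000700), *Acod1*, the enzyme that makes itaconate (-3.08, adjusted p = 0.00269), and *Ly6g* (-3.21, adjusted p = 0.00480). By role, 3 of 7 genes listed with granule proteins were lower, among them *Ly6g*, which encodes a surface protein. Lower too were 8 of 13 genes of the inflammatory response of mature cells, 2 of 4 genes of other chemotactic receptors and 2 of 5 genes for ligands of CXCR2. The 2 ligands were *Cxcl2* (-2.94, adjusted p = 0.00871) and *Cxcl5* (-2.98, adjusted p = 0.00990), chemokines that epithelial and stromal cells make as well. *Csf3r*, the receptor for granulocyte colony-stimulating factor, was at -1.01 (adjusted p = 0.206). These last 3 genes were chosen after their values were seen.

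Of the macrophage list, 3 of 35 genes tested were called higher and 3 lower in the male mouse. Over all genes 10.3% were higher and 8.82% lower, so the list was called about as often as all genes. *Mertk* (1.39, limma adjusted p = 0.00203), *Ctss* (0.68, adjusted p = 0.00393) and *Maf* (0.48, adjusted p = 0.0435) were higher in the male mouse, and *Cd14*, a receptor for bacterial lipopolysaccharide (-1.05, adjusted p = 0.0230), *Msr1*, a scavenger receptor (-1.001, adjusted p = 0.0280), and *Ccr2*, the receptor that draws monocytes from the blood (-1.02, adjusted p = 0.0399), were lower. Of these, *Maf*, *Msr1* and *Ccr2* were named after their values were seen, and the other 29 genes tested were not called. Among other cell types, 4 of 5 endothelial genes were lower, 2 of 7 T cell genes higher and 1 lower, and 1 of 7 epithelial genes higher. None was called among 7 fibroblast, 8 Paneth cell, 5 smooth muscle, 4 general leukocyte, 4 B and plasma cell, 5 mast cell, 2 eosinophil and 2 dendritic cell genes. The summed endothelial markers had a median of 7144 normalised counts in the female and 2645 in the male mouse, and the general leukocyte markers 1871 and 1860. The part of these cells in the difference of *S100a8* was not tested.

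*Rn18s* took a median of 2.61% of the counts of female and 7.24% of male undivided tumours. Over the 23 undivided tumours its share on the log2 scale and *S100a8* had a Pearson's r of -0.42 (rho -0.28, permutation p adjusted over 10 genes 0.0868 and 0.257), and *Cxcr2* had -0.55 (rho -0.47, 0.0586 and 0.114). *Itgam* had -0.51 (rho -0.56, adjusted permutation p = 0.0606 and 0.0568), *S100a9* -0.47 (rho -0.34, 0.0845 and 0.219) and *Csf1r* -0.43 (rho -0.43, 0.0868 and 0.114). Within the mice, r for *S100a8* was 0.41 in the female (n = 10) and -0.55 in the male mouse (n = 13), and r for *Cxcr2* was 0.05 and -0.63. Without the 2 tumours farthest from the median *Rn18s* share, r was -0.37 for *S100a8* and -0.48 for *Cxcr2*.

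The divided tumours of the same mice were then compared, after the difference above had been seen. The neutrophil genes were close to 0: *S100a8* was at -0.31 (interval -1.53 to 0.91, limma adjusted p = 0.751), *S100a9* at -0.33 (-1.59 to 0.93, adjusted p = 0.745) and *Cxcr2* at 0.02 (-1.12 to 1.16, adjusted p = 0.984). Of the 10 genes, only *Cd68* was called, lower in the male mouse by -0.53 (SE 0.17, adjusted p = 0.0437), in a comparison that called 13.1% of 16436 genes, 5.87% higher and 7.19% lower. An unadjusted p under 0.05 was found for 3 of the 10 and 29.8% of all genes. That call was lost when 11 of the 17 tumours were left out in turn, with values from -0.60 to -0.44, and without a filter on low values. *Cd68* was at -0.54 in undivided tumours, a similar size. On the lists, *Ly6c2*, a monocyte surface protein (-1.60, adjusted p = 0.00122), *Cd163*, a receptor for haemoglobin complexes (-2.01, adjusted p = 0.0126), *Lyve1* (-1.06, adjusted p = 0.0288) and *Gpnmb* (-1.04, adjusted p = 0.0476), both named after their values were seen, were lower, and *Clec7a* (0.76, adjusted p = 0.0142) higher in the male mouse. Of the neutrophil list only *Il1r2* was called (-0.94, adjusted p = 0.0194), and *Lcn2* (-1.90) and *Mmp9* (-0.84) followed with adjusted p of 0.0889 and 0.176. Of other markers, 4 of 4 B and plasma cell genes and 1 of 8 Paneth cell genes were lower and 1 of 4 mast cell genes higher.

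**Figure D3:**
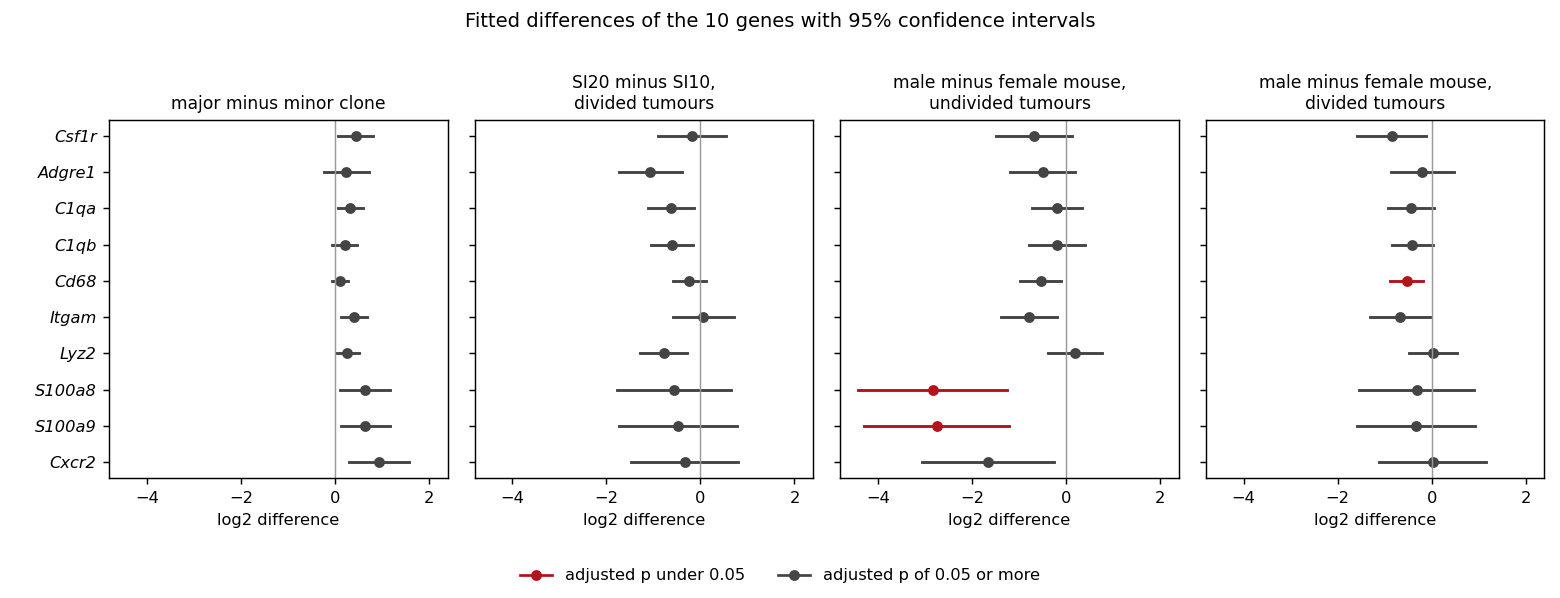
Fitted log2 differences (points) and 95% confidence intervals (lines) of the 10 genes in 4 comparisons, on 1 scale. Red marks an adjusted p under 0.05 in limma across all genes. *S100a8* and *S100a9* stand out below 0 for the male against the female mouse in undivided tumours and lie near 0 in divided tumours, where *Cd68* alone is red.

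Whether the mice differ more in undivided than in divided tumours was tested directly, again after the data were seen. The change was -2.52 for *S100a8* (interval -4.69 to -0.35, unadjusted p = 0.0239, adjusted p = 0.274 in limma), -2.42 for *S100a9* (-4.54 to -0.29, adjusted p = 0.284) and -1.68 for *Cxcr2* (-3.61 to 0.26, adjusted p = 0.435). No member of the group was called, where 0.00606% of 16494 genes were, and 2 of the 10 had an unadjusted p under 0.05, where 14% of genes did. The neutrophil list had 0 of 30 genes called and 11 with an unadjusted p under 0.05, and its median was -1.40. *Acod1* (-2.86), *Cxcl2* (-3.04) and *Ly6g* (-2.70) had its smallest p, with adjusted p from 0.159 to 0.199. In the macrophage list *Ctss* (0.67), *Cd14* (-1.17) and *Mertk* (1.18) had adjusted p from 0.210 to 0.223.

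The 10 genes fell into groups by how they varied over the 23 undivided tumours, given with r as a description over libraries that share 2 mice. *Csf1r*, *Adgre1*, *C1qa*, *C1qb* and *Cd68* correlated with each other at r from 0.66 to 0.94, and *S100a8*, *S100a9* and *Cxcr2* at r from 0.76 to 0.94. Between the groups r ran from -0.03 to 0.54. *Itgam* lay with both, at 0.89 with *Csf1r* and 0.77 with *Cxcr2*, and *Lyz2* lay with the C1q genes.

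**Figure D4:**
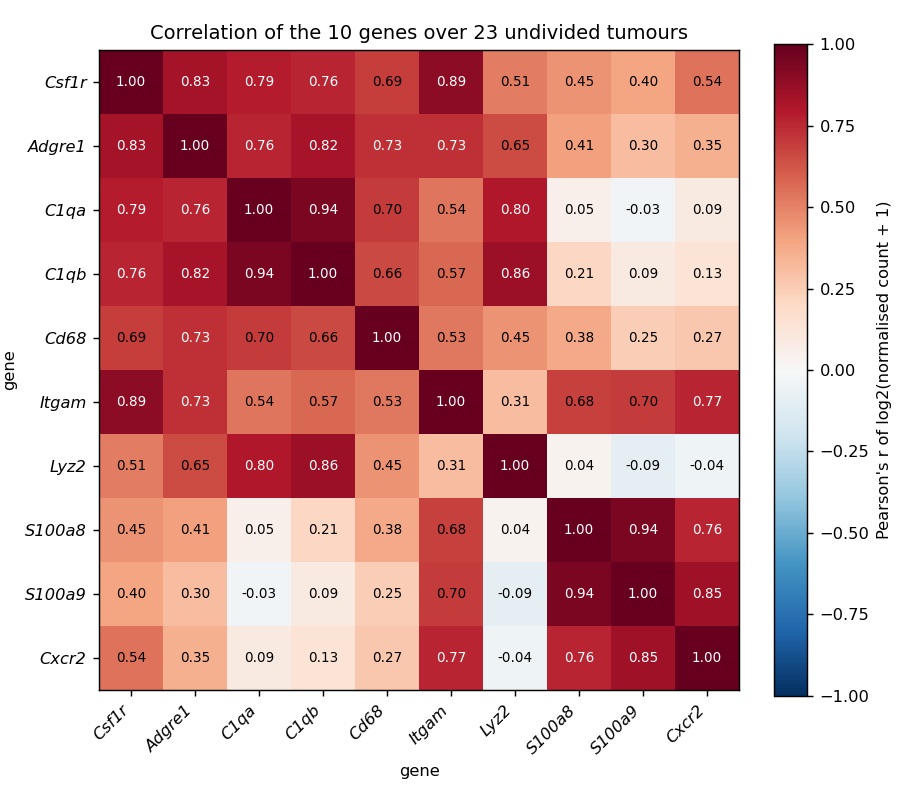
Pearson's r between the 10 genes over 23 undivided tumours, from log2(normalised count + 1). Rows and columns are genes, and colour and number give r. The block of 5 macrophage genes (0.66 to 0.94) and that of 3 neutrophil genes (0.76 to 0.94) stand apart from the values between them (-0.03 to 0.54).

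Of the 9 pairs tested, 9 had an adjusted permutation p under 0.05 by Pearson's r and 8 by Spearman's rho. The share over pairs of other genes was not computed. *C1qa* and *C1qb* had r = 0.94 and rho = 0.90 (adjusted permutation p = 2.25e-05 for each, from the smallest p that the permutations can give), with 0.98 in the female and 0.92 in the male mouse. *S100a8* and *S100a9* had r = 0.94 and rho = 0.98 (2.25e-05 for each), with 0.99 and 0.89 in the mice. *S100a8* and *Cxcr2* had r = 0.76 and rho = 0.87 (adjusted permutation p = 6e-05 and 2.25e-05). *Csf1r* correlated with *Itgam* at 0.89 (rho 0.84), *Adgre1* at 0.83 (rho 0.78), *C1qa* at 0.79 (rho 0.67), *Cd68* at 0.69 (rho 0.67) and *Lyz2* at 0.51 (rho 0.44), with adjusted permutation p up to 0.0143 for r and 0.0427 for rho. Without the 2 tumours farthest from the median of *Csf1r*, these values of r were 0.86, 0.73, 0.59, 0.56 and 0.38, so that the last rested in part on those tumours. *Csf1r* and *S100a8* had r = 0.45 (adjusted permutation p = 0.0334) and rho = 0.33 (adjusted p = 0.123), with 0.21 in the female and 0.34 in the male mouse, and with the mean of each mouse removed r was 0.32 (adjusted p = 0.137). The relation thus held by r over the pooled mice only.

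The genes most like *Csf1r* over the undivided tumours, among 13023 genes with a mean of at least 50, were *Mpeg1*, the macrophage pore protein perforin-2 (r = 0.96), *Bgn*, the matrix proteoglycan biglycan (0.94), *Slc15a3*, a lysosomal peptide transporter (0.93), *Serping1*, the inhibitor of complement C1 (0.93), *Itgax*, the integrin CD11c (0.93), and *Cmklr1*, the chemerin receptor (0.93). Those most like *S100a8* were *Thpo*, the growth factor thrombopoietin (0.90), *Trem1*, a receptor of neutrophils and monocytes (0.90), *Csf3r* (0.90), *Chil3*, a chitinase-like protein of myeloid cells (0.89), *Cxcl2* (0.88) and *Plscr1*, a scramblase induced by interferon (0.88). Within the female mouse *Trem1* had r = 0.28 and *Thpo* 0.52, against 0.91 and 0.88 within the male mouse.

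The level of a gene in 1 clone was related to its level in the other clone of the same tumour. Over 20 tumours, Pearson's r of major with minor clone was 0.77 for *Cd68* (rho 0.79, adjusted permutation p = 0.001 and 0.0013) and 0.74 for *Lyz2* (rho 0.64, 0.001 and 0.0123). It was 0.62 for *S100a8* (rho 0.53) and 0.65 for *S100a9* (rho 0.55), with adjusted permutation p of 0.00732 and 0.00637 for r and 0.0330 for each rho. Without the 2 tumours farthest from the median of the major clones, r was 0.78, 0.54, 0.72 and 0.27 for these 4 genes. The value of r for *S100a9* thus rested in large part on those tumours. *Adgre1* had the weakest relation, with r = 0.37 (rho 0.33, adjusted permutation p = 0.107 and 0.150). In all, 8 of the 10 genes had an adjusted p under 0.05 by r, and the share over all genes was not computed. By rho there were also 8, with *Itgam* lost (adjusted p = 0.0688) and *Cxcr2* gained (0.0330), and with mouse means removed there were 9, with *Cxcr2* gained (r = 0.47, adjusted p = 0.0465). *Itgam* (r = 0.65) was at -0.30 in the female and 0.74 in the male mouse.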

How the data were processed

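RNA of microdissected tumour tissue was sequenced by the authors with a stranded, polyA-selected kit. Per the labels and the study's methods, reads were trimmed (Trimmomatic 0.39), aligned (STAR 2.7.7a) and quantified with Salmon 1.9.0 against Gencode M30 on GRCm39, and the deposited table holds normalised counts per gene, treated here as a signal, made by the authors with DESeq2, of which the exact scaling is not given in the sources used here. Whole reads could not be recovered, so no count model was used and no counting interval is given; library sums ran from 26140200 to 45909900. Which clone of a tumour was major was taken from the study's source data, matched by sample title, because the titles give a letter only.

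Genes were tested on log2(value + 1) with limma 3.58.1 (R 4.3.3, empirical Bayes with trend) over all genes with a mean of at least 10, with Benjamini-Hochberg adjustment at 0.05. A fold on this scale understates the change of low genes. Major and minor clones were paired by tumour as a block, since both come from 1 tumour (deviations of clones of the same tumour had a median correlation of 0.265, from 0.0282 to 0.620, over 0.1 in 17 of 20). Undivided tumours were compared with clones with mouse as covariate, and segments and mice with each other as covariates, with 1 value per divided tumour. The clone difference between mice was the exception, fitted over all 20 divided tumours without segment. Segment comparisons used 17 divided tumours, leaving out SI30 (female tumours 29 and 30) and female tumour 22, whose clones carry different segments. Tumours of 1 mouse are not separate animals, so p-values measure the spread between tumours. Permutation tests used 100000 draws in Python 3.11.15 (scipy 1.17.1, numpy 2.4.6, pandas 2.3.3) and were two-sided. The fits were tested on simulated data. The 10 genes and the lists of pathway and marker genes were chosen with earlier results of these data known. In each comparison the 3 genes of each pathway list with the smallest p are named, and the 6 genes most like *Csf1r* and *S100a8*; some of these are not reported here. The comparison of mice in divided tumours, of the clone difference between mice, of the mouse difference between undivided and divided tumours, without male tumours 15, 17 and 18, and with *Rn18s* and *Lyz1* were added after seeing the data. Alternatives were other pseudocounts (0.1 and 5), filters, scalings, trend settings, covariates, each mouse alone and leaving out each tumour or library. Promoters are from RefSeq on GRCm38.p6. Positions, overlaps and coding sequences are from Gencode M39 on GRCm39.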

Additional observations from a re-analysis of the deposited data

Results flagged for a closer look

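Within groups of 10 tumours or clones of 1 mouse, 2 of 50 sets of values had an end value far from the rest, and chance flags about 1 in 20 such sets. *C1qb* was highest among the female minor clones in tumour 20, at 1357 normalised counts, where the next was 659. *Cxcr2* was lowest among the female minor clones in tumour 19, at 5.68 normalised counts, where the next was 14.0. Leaving out female tumour 19 gave *Itgam* an adjusted p under 0.05 in the comparison of major with minor clones. The part of these values in other results was tested only by leaving the tumours out.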

How the results depend on the processing

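Of 938 values for the 10 genes under other settings, 878 kept their direction and side of the threshold, 5 fell below it, 6 rose above it and 49 changed sign. Of 2630 values that leave out 1 tumour or library, these counts were 2511, 11, 6 and 102. Without the replicate block (mouse as covariate) *Cxcr2* was at 0.94 with an adjusted p of 0.266 between major and minor clones, and no call changed. The number of the 10 genes called ran from 0 to 1 without 1 tumour for major against minor clones, and from 0 to 1 for the mice in divided tumours, where no filter on low values gave 0. For the mice in undivided tumours it was 5 with equal library sums. The cause of the changes of sign below was not tested. In the female mouse alone, major against minor clones gave -0.014 for *Csf1r*, -0.044 for *Adgre1* and -0.00070 for *Cd68*. Undivided tumours against minor clones gave, for *S100a8*, 0.054 with a pseudocount of 5, 0.073 after quantile normalization, 1.17 in the female mouse and 0.45 with tumours 1 to 10. They gave, for *S100a9*, -0.0055 with a pseudocount of 0.1, -0.069 with equal sums, -1.15 in the male mouse and -0.12 with segment as covariate. They gave, for *Cd68*, -0.077 with equal sums, -0.0038 in the male mouse, -0.069 with segment and -0.0082 with tumours 1 to 10, and for *Cxcr2* -0.31 in the male mouse. Against major clones, *Csf1r* was -0.037 with equal sums and -0.14 in male tumours, *Adgre1* was -0.077 in male tumours, and for female tumours *Cd68* was 0.039, *Itgam* 0.039, *S100a8* 0.66, *S100a9* 0.61 and *Cxcr2* 0.37. SI20 against SI10 in undivided tumours gave, in the female mouse, -0.98 for *Csf1r*, -1.04 for *Adgre1*, -0.41 for *Itgam*, -0.043 for *S100a8* and -0.16 for *Cxcr2*, in the male mouse 0.20 for *C1qa*, 0.31 for *C1qb*, 0.32 for *Cd68* and 0.31 for *Lyz2*, and with tumours 1 to 10 -0.0019 for *Adgre1*. In divided tumours it gave, in the female mouse, -0.091 for *Itgam*, 0.11 for *S100a8*, 0.29 for *S100a9* and 0.046 for *Cxcr2*, and in the male mouse 0.0016 for *Csf1r*. Its clone difference was -0.35 for *Cxcr2* with a pseudocount of 0.1, and in the female mouse -0.025 for *Csf1r* and -0.37 for *Cxcr2*. Between mice, equal sums gave -0.0082 for *Lyz2* in undivided and -0.0076 for *Cxcr2* in divided tumours, where a pseudocount of 0.1 gave -0.16. The mouse difference between undivided and divided tumours was 0.032 for *Cd68* after quantile normalization, -0.0093 for *Csf1r* and -0.0089 for *Lyz2* with equal sums, and 0.060 for *Itgam* with tumours 1 to 10. Without 1 tumour or library, values in SI20 against SI10 of undivided tumours ran from -0.16 to 0.19 for *Adgre1* and -0.065 to 0.30 for *Csf1r*. Values between mice in undivided tumours ran from -0.25 to 0.016 for *C1qb*. Values in the mouse difference between undivided and divided tumours ran from -0.092 to 0.061 for *Cd68* and -0.29 to 0.043 for *Itgam*. Values in undivided tumours against minor clones ran from -0.029 to 0.074 for *Cd68*, -0.22 to 0.19 for *S100a8* and -0.18 to 0.25 for *S100a9*. Values in SI20 against SI10 of divided tumours ran from -0.42 to 0.011 for *Csf1r*, -0.79 to 0.12 for *Cxcr2* and -0.22 to 0.27 for *Itgam*. Values in undivided tumours against major clones ran from -0.039 to 0.18 for *Csf1r*. Values in the clone difference of SI20 against SI10 ran from -0.55 to 0.69 for *Cxcr2*. Values between mice in divided tumours ran from -0.30 to 0.35 for *Cxcr2* and -0.092 to 0.15 for *Lyz2*. Values in the clone difference between mice ran from -0.038 to 0.61 for *S100a8* and -0.45 to 0.16 for *S100a9*. Over all genes, the calls between major and minor clones ran from 25 (without male tumour 20) to 859 (without female tumour 19), against 188 with all, and were 0 in the female mouse alone. *Cxcr2* was not tested with a mean of at least 50. The read depth behind single values is unknown.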

Other observations

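*S100a8* and *Cxcr2* spread more widely over undivided tumours of the male than of the female mouse, with male values that reached 0. The SD of log2(value + 1) of *S100a8* over undivided tumours was 0.98 in the female (n = 10) and 2.43 in the male mouse (n = 13), and over minor clones 0.56 and 2.18 (n = 10 each). *Cxcr2* had SDs of 0.69 and 2.19 over undivided tumours. A wider male spread was not particular to neutrophil genes. *Itgam* had SDs of 0.25 and 0.91 over minor clones and *Csf1r* 0.71 and 1.14 over undivided tumours (female, male). *Lyz2* over undivided tumours (0.82 and 0.60) and *Cd68* over major clones (0.35 and 0.33) went the other way. These differences in spread were not tested.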
